A study of Rattus norvegicus with 12 samples.

Results

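The genes described here carry antigen presentation, the display of protein fragments at the cell surface. They comprise every row of the deposited expression table whose symbol starts with RT1-, the rat major histocompatibility complex (MHC), and 20 further genes given by name, from the class I light chain B2m to the class II transactivator Ciita. The table held 66 of them among 14636 genes: 47 RT1 rows and 19 of the 20 named genes, Nlrc5 being not analysed here. By their symbols the RT1 rows were sorted into 4 classical class I (class Ia) rows, 34 nonclassical class I (class Ib) rows and 9 class II rows. The rows were taken by symbol and not by their values, though the list was chosen with earlier results of these data known.

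The study compared primary cells from hearts of Sprague Dawley rats aged 2 days in 4 groups of 3 libraries. The groups were cardiomyocytes (CM) with siRNA against Yap, cardiomyocytes with a negative control siRNA, cardiac fibroblasts (CF) with Yap siRNA and fibroblasts with control siRNA. Single libraries are written CM_yap, CM_neg, CF_yap or CF_neg, neg being the control siRNA, with their replicate number. The medium was DMEM with 15% fetal bovine serum in all groups, and the siRNA was given 16 h after plating. The Yap groups received 2 siRNAs at 25 nM each, and RNA of all groups was collected 48 h after transfection. No dose or number of siRNAs was recorded for the control groups, so equal doses cannot be taken as given. The question was which transcripts change when Yap, a coactivator that the Hippo pathway restrains, is depleted. The labels list no library with a single Yap siRNA, so effects of a single siRNA cannot be told apart from those of Yap loss. Separate animals or cultures are not stated for the libraries of a group, so p-values reflect only how far these libraries vary, which may be technical.

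Class I molecules stand on nearly all nucleated cells and show peptides from the cell's own proteins to CD8 T cells. The proteasome cuts the proteins, the TAP transporter carries the peptides into the endoplasmic reticulum, tapasin and related editors help load them, and the heavy chain needs the light chain B2m to reach the cell surface in a stable form. Class II molecules show peptides from the endolysosome to CD4 T cells, mostly on professional antigen presenting cells, and their genes are switched on by Ciita together with the RFX complex. Interferons raise the genes of both routes, through STAT and IRF factors that bind interferon-stimulated response elements (ISRE).

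Values are FPKM, fragments normalized for transcript length and for the library's mapped fragments, and fold changes are differences of log2(FPKM + 1) given with their standard error (SE), which understates changes of low genes. Calls were made with limma at an adjusted p (Benjamini-Hochberg) under 0.05, over the 11302 genes that averaged 0.5 FPKM or more. Of the 66 members 54 were tested and 12 lay under that filter, with RT1-M1-5 at 0 FPKM in every library. Library totals ranged over 563193.5 to 620119.3 FPKM, and how deeply each was sequenced is unknown. Yap1 stood at 5.9, 4.43 and 6 FPKM in Yap siRNA cardiomyocytes, against 55.3, 60.8 and 63.1 FPKM in control cardiomyocytes. Fibroblasts held 4.45, 3.88 and 4.49 FPKM of it with Yap siRNA, against 35.4, 37.4 and 33.5 FPKM with control siRNA, so the target was low in every Yap siRNA library. Summed over 8 genes each, cardiomyocyte markers reached 33180 and 24380 FPKM in Yap and control siRNA cardiomyocytes and 974 and 1078 FPKM in the corresponding fibroblasts. The fibroblast marker sums were 415 and 419 FPKM in cardiomyocytes and 17560 and 17110 FPKM in fibroblasts. The cultures therefore carried their labelled cell types' markers, with traces of the other. In these bulk samples, fewer cells of a type and less RNA per cell cannot be told apart.

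With Yap siRNA many antigen presentation genes rose in fibroblasts, while in cardiomyocytes some rose and some fell. In fibroblasts, 25 of the 54 tested members rose (46.3%) and 1 fell, where 20.4% of all tested genes were called higher and 10.5% lower. Their median log2 fold change was 0.29, against 0.065 over all tested genes. In cardiomyocytes, 9 members rose (16.7%) and 11 fell (20.4%), where 21% of all tested genes were called higher and 28.7% lower, so neither share exceeded the background. The median there was −0.08, against −0.059 over all genes. The difference between the effects, cardiomyocytes minus fibroblasts, was called in 25 members, where 35.3% of all tested genes were called. It was negative in 22 (40.7%, against 23.7% of all genes) and positive in 3 (11.7% of all genes). Its median was −0.38 over the members and −0.132 over all genes.

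Other scalings of the FPKM between libraries moved the background more than the members' fibroblast count. In fibroblasts, 24 members rose with median-of-ratios scaling and 25 after quantile normalization, where 17.1% and 14.2% of all genes were called higher and 13.8% and 16.5% lower. In cardiomyocytes both scalings gave 11 members higher and 9 lower, with 26.2% and 23.3% of all genes higher and 22.6% and 25.7% lower. For the difference between cell types they gave 16 and 17 negative members, with 15.4% and 15.2% of all genes negative and 16.7% and 15.8% positive. The median difference of all genes moved to −0.013 and 0.003 and that of the members to −0.253 and −0.27, with the members below all genes in each case. These scaled counts of lists were added after the data were seen.

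**Figure D1:**
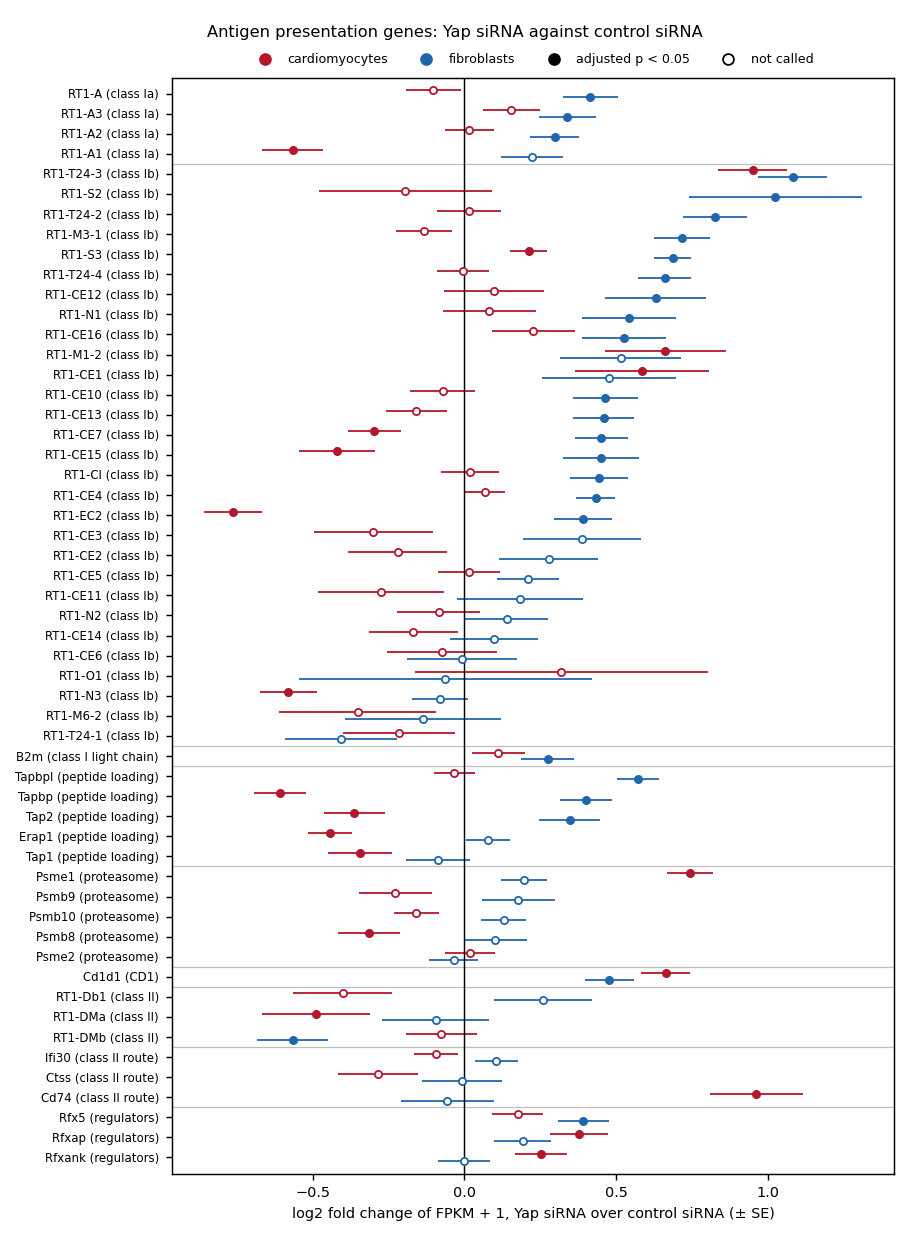
Log2 fold changes of FPKM + 1, Yap siRNA over control siRNA, on the horizontal axis for the 54 tested members, grouped by role from top to bottom. Red points are cardiomyocytes and blue points fibroblasts (3 libraries a group), bars are limma's SE, and filled points passed an adjusted p of 0.05; 25 of the blue points are filled on the right of 0 and 1 on the left, while filled red points lie on both sides, 9 right and 11 left.

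The calls in the 2 cell types, which share no library, were also joined. In both cell types 3 members rose, Cd1d1, RT1-T24-3 and RT1-S3 (5.56%, against 6.97% of all tested genes). This number depended on the scaling. It was 5 under median-of-ratios scaling (9.26%, against 6.97% of all genes) and 6 under quantile normalization (11.1%, against 5.54%). A fall in cardiomyocytes went with a rise in fibroblasts for 5 members, RT1-EC2, RT1-CE7, RT1-CE15, Tapbp and Tap2, which is 9.26% of the tested members, against 3.49% of all tested genes. The count was 5 under median-of-ratios scaling (2.3% of all genes) and 3 under quantile normalization (5.56%, against 2.37% of all genes). A rise in fibroblasts with no call in cardiomyocytes was found for 17 members (31.5%, against 9.98% of all genes). No member rose in cardiomyocytes and fell in fibroblasts, or fell in both.

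The promoters of 6 members are printed because their genes stand for the class I route. RT1-S3 and RT1-T24-3 rose in both cell types, Tapbp fell in cardiomyocytes and rose in fibroblasts, RT1-A2 and B2m were called in fibroblasts alone and Tap1 in cardiomyocytes alone. Each is the 250 bases before the transcription start on the gene's own strand, from RefSeq on build GRCr8, which is not the build the reads were mapped to. Capitals mark matches to the core of an ISRE (GAAA, any 2 bases, GAAA), to its shorter form (GAA, any 2 bases, GAAA) and to ATTGG, the inverted CCAAT box bound by NF-Y, on either strand. The regions are chr20:4872621-4872870 (plus strand) for RT1-A2, chr20:2675278-2675527 (plus) for RT1-S3, chr20:2722875-2723124 (plus) for RT1-T24-3, chr3:129549080-129549329 (plus) for B2m, chr20:4967878-4968127 (minus) for Tapbp and chr20:4668544-4668793 (minus) for Tap1.
RT1-A2: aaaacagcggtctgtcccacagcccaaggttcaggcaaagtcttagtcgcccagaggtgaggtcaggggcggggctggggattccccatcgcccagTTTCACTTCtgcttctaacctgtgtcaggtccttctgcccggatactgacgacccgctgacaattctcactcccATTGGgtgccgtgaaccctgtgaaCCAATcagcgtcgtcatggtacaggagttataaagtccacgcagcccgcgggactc
RT1-S3: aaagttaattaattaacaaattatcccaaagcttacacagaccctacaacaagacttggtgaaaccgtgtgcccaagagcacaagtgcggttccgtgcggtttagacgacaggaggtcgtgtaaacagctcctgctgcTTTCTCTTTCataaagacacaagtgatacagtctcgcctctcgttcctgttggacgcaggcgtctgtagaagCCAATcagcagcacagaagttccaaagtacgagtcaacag
RT1-T24-3: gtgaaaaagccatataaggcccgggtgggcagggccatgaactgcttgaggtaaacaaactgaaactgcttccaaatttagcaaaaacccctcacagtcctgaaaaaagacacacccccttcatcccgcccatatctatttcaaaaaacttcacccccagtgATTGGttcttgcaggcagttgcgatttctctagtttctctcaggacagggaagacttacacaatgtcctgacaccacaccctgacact
B2m: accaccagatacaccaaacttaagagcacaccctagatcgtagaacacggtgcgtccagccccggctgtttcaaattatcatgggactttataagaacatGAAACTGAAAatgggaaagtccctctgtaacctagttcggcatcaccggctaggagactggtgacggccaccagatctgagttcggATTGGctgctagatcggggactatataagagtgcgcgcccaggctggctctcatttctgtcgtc
Tapbp: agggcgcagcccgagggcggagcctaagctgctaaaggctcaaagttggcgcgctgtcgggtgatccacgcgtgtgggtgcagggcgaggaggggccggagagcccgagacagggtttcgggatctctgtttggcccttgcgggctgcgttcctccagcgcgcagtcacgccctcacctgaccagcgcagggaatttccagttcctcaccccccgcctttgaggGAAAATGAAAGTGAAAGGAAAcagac
Tap1: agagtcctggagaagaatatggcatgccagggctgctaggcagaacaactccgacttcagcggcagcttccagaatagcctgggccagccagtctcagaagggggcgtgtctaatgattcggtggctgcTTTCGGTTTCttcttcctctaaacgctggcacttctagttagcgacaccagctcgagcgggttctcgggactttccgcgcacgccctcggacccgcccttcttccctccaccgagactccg

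The ISRE core occurred, on either strand within 250 bases before and 50 after the start, in 12 of the 56 members with a promoter entry (21.4%) and in 3.8% of 27457 promoters of all genes. The 12 were B2m, Ctss, Psmb10, Psmb8, Psme2, RT1-N3, RT1-S2, RT1-S3, Rfx5, Tap1, Tap2 and Tapbp. The shorter form, which is a separate pattern although its matches can overlap the core's, occurred in 18 members (32.1%) and in 8.4% of all promoters. Among the RT1 class I rows with an entry it was found in 13 of 31 (41.9%), and these genes are close copies that share sequence. The inverted CCAAT box was present in 66.1% of members and 37.7% of all promoters. A match to GGAATG, the core bound by the TEAD partners of Yap, was present in 10.7% of members and 13.9% of all promoters. Matches to the STAT pattern TTCNNNGAA stood at 5.4% and 8.7%, and matches to the NF-kappaB pattern, GGG and CC with any 5 bases between, at 55.4% and 48.5%. RT1-T24-3, which rose in both cell types, held neither ISRE form in its window. Tap1 and Psmb9 lie head to head and their windows overlap. A match is a description of letters and no evidence of binding.

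Among the class I heavy chains, fibroblasts showed a broad rise. Of 33 tested RT1 class I rows 19 rose with Yap siRNA in fibroblasts (57.6%, against 20.4% of all genes) and none fell, with a median of 0.43. In cardiomyocytes 4 rose (12.1%, against 21% of all genes) and 5 fell (15.2%, against 28.7%), with a median of −0.07. After quantile normalization 3 fell in cardiomyocytes, and 1, RT1-T24-1, fell in fibroblasts. The difference was called in 15 rows, all negative (45.5%, against 23.7% of all genes negative). Under either scaling it was called in 12, all negative (36.4%, against 15.4% and 15.2% of all genes). These rows are near-identical copies of one another and the RT1 complex differs between rat strains, while the reads of Sprague Dawley cells were mapped to the rn6 genome. How reads were shared among the rows, and the effect on single rows, was not tested, and single-row values are therefore uncertain.

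Summed over all 38 RT1 class I rows, the level reached 1320, 1284 and 1229 FPKM in Yap siRNA fibroblasts, against 861, 963 and 977 FPKM in control fibroblasts, which is 137% of control with no overlap. In cardiomyocytes it was 864, 865 and 785 FPKM with Yap siRNA, against 859, 804 and 826 FPKM with control siRNA, and the groups overlapped. The means were 838 ± 45.8 and 829 ± 27.8 FPKM in cardiomyocytes and 1278 ± 45.9 and 934 ± 63.5 FPKM in fibroblasts (Yap siRNA and control siRNA, SD, n = 3 each). Under median-of-ratios scaling the sum stood at 107.2% of control in cardiomyocytes and 132.2% in fibroblasts. An exact permutation test of 3 libraries against 3 cannot give a p below 0.1, so no test of the sums is given. The 4 class Ia rows made up 26.7 ± 0.696% of the sum in Yap siRNA cardiomyocytes and 30 ± 0.766% in control cardiomyocytes. In fibroblasts that share was 29.8 ± 0.304% with Yap siRNA and 32.5 ± 0.97% with control siRNA. The class Ia share was thus lower with Yap siRNA in both cell types, without overlap. Its denominator includes the class Ib row RT1-T24-3, which rose in both cell types, and the share without that row is not given. The class Ia sum itself stood at 89.85% of control in cardiomyocytes and 125.6% in fibroblasts.

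Of the classical heavy chains, RT1-A1 and RT1-A had a called difference between the cell types. RT1-A1 stood at 46.5, 34.2 and 49.2 FPKM in Yap siRNA cardiomyocytes, against 67.2, 59.7 and 64.9 FPKM in control cardiomyocytes. With Yap siRNA all 3 cardiomyocyte libraries lay below the controls, and RT1-A1 fell (−0.57 ± 0.10, adjusted p = 0.000312 in limma). Fibroblast libraries held 92.7, 94 and 93.8 FPKM with Yap siRNA, against 78, 78.4 and 83.8 FPKM with control siRNA, again without overlap but in the other direction. That fold change of 0.22 ± 0.10 was not called (adjusted p = 0.111), though it passed without CM_yap 2 (adjusted p = 0.00844) and in a fit of the fibroblast groups alone (adjusted p = 0.00469). The difference between the effects was −0.79 ± 0.14 (adjusted p = 0.000769). RT1-A, RT1-A2 and RT1-A3 rose in fibroblasts, by 0.41, 0.30 and 0.34, and were not called in cardiomyocytes in the main fit. The difference of RT1-A was −0.52 ± 0.13 (adjusted p = 0.00677). In cardiomyocytes RT1-A3 was called higher under median-of-ratios scaling and quantile normalization (adjusted p = 0.0406 and 0.0487). The fibroblast rise of RT1-A2 lost its call without CF_neg 1 (adjusted p = 0.0669), and that of RT1-A3 without CF_neg 2 or CF_yap 1 (adjusted p = 0.0636 and 0.0617).

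The nonclassical row RT1-T24-3 rose in both cell types. It stood at 128, 127 and 111 FPKM in Yap siRNA cardiomyocytes, against 56, 61.8 and 70.4 FPKM in control cardiomyocytes. Its fibroblast levels were 126, 104 and 97.8 FPKM with Yap siRNA, against 43.5, 57 and 53.1 FPKM with control siRNA. Neither pair of groups overlapped, and the rises were 0.95 ± 0.11 (adjusted p = 8.4e-06) and 1.08 ± 0.11 (adjusted p = 4.65e-06), called in every alternative run. The difference of −0.13 ± 0.16 was not called (adjusted p = 0.553), which does not show that the effects were equal. Without this row the class I sum was 716 FPKM in Yap siRNA cardiomyocytes and 767 FPKM in control cardiomyocytes (93.5%). The groups were only narrowly apart, with 738.1 FPKM in the highest Yap siRNA library and 741.8 FPKM in the lowest control. This sum was not computed under the other scalings, so a fall is not established. Other RT1-T24 rows were not called in cardiomyocytes. RT1-T24-4 stood at 77.4, 76.6 and 76.1 FPKM in Yap siRNA cardiomyocytes, against 74.4, 82.2 and 74.6 FPKM in control cardiomyocytes, with overlap. With Yap siRNA its fibroblast libraries held 113, 102 and 100.5 FPKM, against 56, 71.7 and 72.1 FPKM in control fibroblasts, a rise of 0.66 ± 0.09 (adjusted p = 4.5e-05). RT1-T24-2, a lower row, likewise rose in fibroblasts alone among the calls. Its levels were 11.4, 11.7 and 9.49 FPKM in Yap siRNA cardiomyocytes, against 11.3, 11.4 and 9.49 FPKM in control cardiomyocytes, and 14.7, 17.1 and 14.5 FPKM in Yap siRNA fibroblasts, against 7.54, 8.16 and 9.22 FPKM in control fibroblasts (0.82 ± 0.11, adjusted p = 3.72e-05). Both had a called difference between cell types (−0.66 and −0.81), whereas RT1-T24-1 was called in neither cell type.

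RT1-S3 was steady between libraries and rose in both cell types, more in fibroblasts. Its levels were 81.4, 81.3 and 78 FPKM in Yap siRNA cardiomyocytes, against 69.1, 70.7 and 67.8 FPKM in control cardiomyocytes (0.21 ± 0.06, adjusted p = 0.00993). In fibroblasts they were 113, 105 and 106 FPKM with Yap siRNA, against 61.8, 68.9 and 69.8 FPKM with control siRNA (0.69 ± 0.06, adjusted p = 8.94e-07). No groups overlapped, and the difference was −0.47 ± 0.09 (adjusted p = 0.000786). RT1-M3-1, the counterpart of the mouse gene whose product presents N-formylated peptides, rose in fibroblasts only among the calls. It held 19.9, 20.3 and 17.5 FPKM in Yap siRNA fibroblasts, against 10.5, 11.7 and 11.8 FPKM in control fibroblasts (0.71 ± 0.09, adjusted p = 3.68e-05). In cardiomyocytes it held 6.43, 5.38 and 5.37 FPKM with Yap siRNA, against 6.64, 6.23 and 6.2 FPKM with control siRNA, with overlap and no call (adjusted p = 0.247), and the difference was −0.85 ± 0.13 (adjusted p = 0.000199).

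RT1-EC2 moved in opposite directions in the 2 cell types. It stood at 29.8, 31.7 and 24.2 FPKM in Yap siRNA cardiomyocytes, against 54.3, 45.2 and 47.2 FPKM in control cardiomyocytes, a fall (−0.76 ± 0.10, adjusted p = 1.33e-05). Yap siRNA fibroblasts held 62.7, 61.7 and 58.5 FPKM, against 42.8, 49.5 and 46.8 FPKM in control fibroblasts, a rise of 0.39 ± 0.10 (adjusted p = 0.00597). The difference of −1.15 ± 0.14 (adjusted p = 1.84e-05) held in every alternative that could be fitted. RT1-N3 fell in cardiomyocytes, to 25.1, 20.1 and 19.1 FPKM with Yap siRNA, against 33.9, 34.2 and 29.1 FPKM with control siRNA (−0.58 ± 0.09, adjusted p = 0.00012). Its fibroblast levels overlapped, at 32.9, 30.2 and 31.1 FPKM with Yap siRNA, against 33.2, 33.9 and 32.4 FPKM with control siRNA, and the difference was −0.50 ± 0.13 (adjusted p = 0.00879).

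A further 3 rows of lower level, RT1-CE12, RT1-CE16 and RT1-N1, rose in fibroblasts with wider spread. RT1-CE12 stood at 25.9, 30.9 and 24.5 FPKM in Yap siRNA fibroblasts, against 17.6, 19.8 and 14.3 FPKM in control fibroblasts (0.63 ± 0.17, adjusted p = 0.00925), and at 14.5, 13.2 and 10.7 FPKM in Yap siRNA cardiomyocytes, against 16.1, 9.27 and 11 FPKM in control cardiomyocytes. RT1-CE16 stood at 16.8, 19 and 15.2 FPKM in Yap siRNA fibroblasts, against 9.9, 15.2 and 9.94 FPKM in control fibroblasts (0.53 ± 0.14, adjusted p = 0.00904), and at 12.7, 14.1 and 13 FPKM in Yap siRNA cardiomyocytes, against 11.9, 9.7 and 12.1 FPKM in control cardiomyocytes. RT1-N1 stood at 21.7, 17.6 and 22.3 FPKM in Yap siRNA fibroblasts, against 11.6, 14.6 and 15.3 FPKM in control fibroblasts (0.54 ± 0.15, adjusted p = 0.0145), and at 8.07, 5.53 and 8.39 FPKM in Yap siRNA cardiomyocytes, against 8.4, 5.94 and 6.19 FPKM in control cardiomyocytes. All 3 fibroblast pairs were without overlap, and none of the 3 was called in cardiomyocytes or in the difference in the main fit. For RT1-CE16 the fibroblast groups almost met, at 15.21 FPKM in the lowest Yap siRNA library and 15.2 FPKM in the highest control. Its cardiomyocyte groups did not overlap either, with Yap siRNA higher. The call of RT1-CE12 ended without CF_neg 3 (adjusted p = 0.0513), that of RT1-CE16 without CF_neg 1 (adjusted p = 0.051), and that of RT1-N1 without CF_neg 1, CF_yap 1 or CF_yap 3 (adjusted p = 0.0757, 0.0559 and 0.0601). RT1-CE1 was called higher in cardiomyocytes, at 9.92, 12 and 7.08 FPKM with Yap siRNA, against 3.79, 8.72 and 6.32 FPKM with control siRNA, although the groups overlapped (0.58 ± 0.22, adjusted p = 0.039). That call ended without CM_neg 1 (0.31, adjusted p = 0.214), CM_neg 3, CM_yap 1 or CM_yap 2 (adjusted p = 0.0616, 0.0881 and 0.162). Its fibroblast levels were 11.1, 12.2 and 15.7 FPKM with Yap siRNA, against 7.59, 9.16 and 10.4 FPKM with control siRNA (adjusted p = 0.117), called in a fit of the fibroblast groups alone (adjusted p = 0.0281).

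The other class Ib rows that rose in fibroblasts were RT1-CE4, RT1-CE7, RT1-CE10, RT1-CE13, RT1-CE15 and RT1-Cl, by 0.43 to 0.46, and RT1-S2, by 1.02. RT1-CE7 and RT1-CE15 fell in cardiomyocytes (−0.30 ± 0.09, adjusted p = 0.0104, and −0.42 ± 0.13, adjusted p = 0.0123), the opposite of their fibroblast direction. After quantile normalization both lost that cardiomyocyte call (adjusted p = 0.0545 and 0.0526). RT1-CE15 also lost it without CM_neg 1 or CM_yap 1 (adjusted p = 0.0679 and 0.0617) and in a fit of the cardiomyocyte groups alone (adjusted p = 0.052). Its fibroblast call was lost after quantile normalization or without CF_yap 1 (adjusted p = 0.0707 and 0.0659). RT1-S2 was scarce, at 2.29, 3.18 and 2.13 FPKM in Yap siRNA fibroblasts, against 0.74, 1.95 and 0 FPKM in control fibroblasts (adjusted p = 0.0126). Its value was 0.63 (adjusted p = 0.0601) without CF_neg 3, and the call also ended without CF_yap 2 (adjusted p = 0.0549). With a pseudocount of 0.1 it was 2.22 and not called (adjusted p = 0.0734), and with a pseudocount of 5 it was 0.36. RT1-M1-2, scarce too, rose in cardiomyocytes (0.66 ± 0.20, adjusted p = 0.0128), a value of 0.43 (adjusted p = 0.0764) without CM_neg 2 and 0.48 (adjusted p = 0.0667) without CM_yap 1. It was 1.19 with a pseudocount of 0.1 and 0.24 with a pseudocount of 5. The remaining 10 tested class Ib rows were called in neither cell type.

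**Figure D2:**
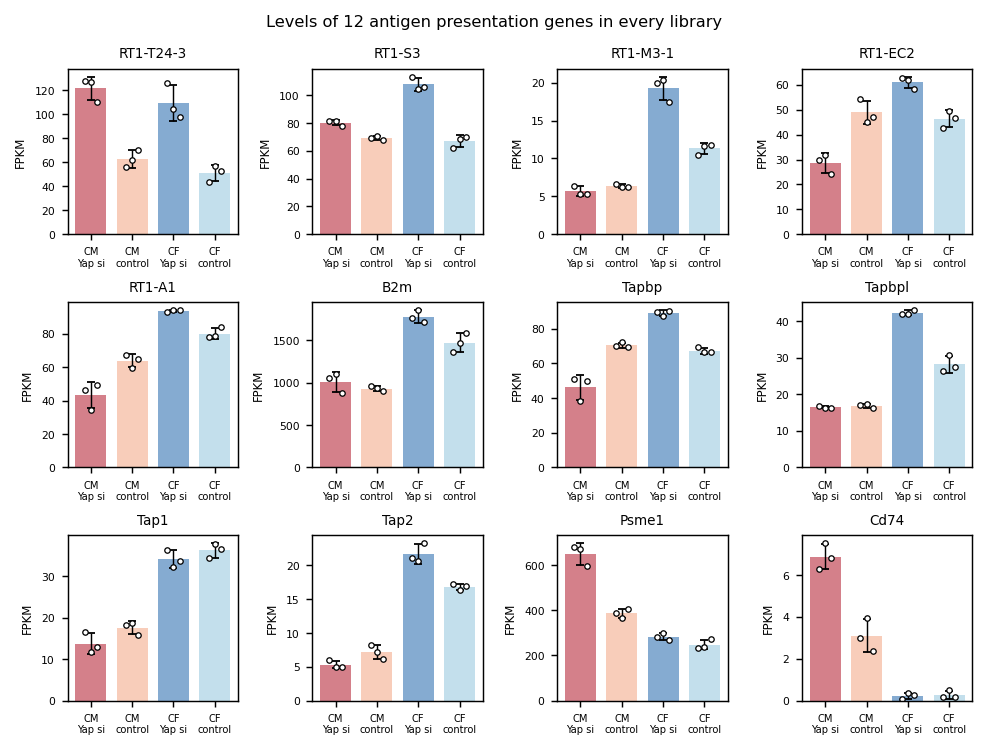
FPKM of 12 members in every library, with CM for cardiomyocytes, CF for fibroblasts and Yap si for Yap siRNA. Open points are the 3 libraries of a group, bars their mean and whiskers the SD; RT1-T24-3 is higher with Yap siRNA in both cell types, RT1-EC2, Tapbp and Tap2 are lower in cardiomyocytes and higher in fibroblasts, and Psme1 and Cd74 are higher in cardiomyocytes.

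The light chain B2m, which every class I molecule shares, was the most abundant member. It stood at 1054, 1098 and 876 FPKM in Yap siRNA cardiomyocytes, against 958, 933 and 899 FPKM in control cardiomyocytes, with overlap (0.11 ± 0.09, adjusted p = 0.309). B2m rose in fibroblasts, to 1759, 1858 and 1715 FPKM with Yap siRNA, against 1363, 1461 and 1590.4 FPKM with control siRNA, by 0.27 ± 0.09 (adjusted p = 0.0266) without overlap. The ratio of B2m to the summed class I rows, both per length, was 1.39 ± 0.0573 in Yap siRNA fibroblasts and 1.58 ± 0.0556 in control fibroblasts. That call is not firm, since it was lost with median-of-ratios factors (adjusted p = 0.0811), with no filter (adjusted p = 0.051) and without CF_neg 1, CF_neg 2, CF_yap 1 or CF_yap 2 (adjusted p = 0.122, 0.072, 0.0626 and 0.0868).

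Of the 5 peptide loading genes 4 fell in cardiomyocytes, where 28.7% of all tested genes were lower, and none rose. In fibroblasts 3 rose, where 20.4% of all genes were higher, and none fell. The difference between cell types was called in 4, all negative, and not in Tap1, where 23.7% of all genes were negative. Tapbp encodes tapasin, which holds empty class I molecules at the transporter. It stood at 51, 38.1 and 49.8 FPKM in Yap siRNA cardiomyocytes, against 69.9, 72.3 and 69.4 FPKM in control cardiomyocytes (−0.61 ± 0.09, adjusted p = 4.22e-05). With Yap siRNA the fibroblasts held 89.9, 87.3 and 90.5 FPKM, against 69.4, 66.3 and 66.6 FPKM in control fibroblasts (0.40 ± 0.09, adjusted p = 0.00267). Neither pair overlapped, and the difference of −1.01 ± 0.12 (adjusted p = 2.58e-05) was called in every alternative that could be fitted. Tapbpl encodes the tapasin-related peptide editor TAPBPR and moved in fibroblasts. It held 42, 42 and 43.1 FPKM in Yap siRNA fibroblasts, against 26.5, 30.9 and 27.4 FPKM in control fibroblasts (0.57 ± 0.07, adjusted p = 1.82e-05). In cardiomyocytes it held 16.8, 16.2 and 16.4 FPKM with Yap siRNA, against 17, 17.4 and 16.3 FPKM with control siRNA, with overlap and no call (adjusted p = 0.719), and the difference was −0.60 ± 0.10 (adjusted p = 0.00028).

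The 2 chains of the transporter did not move as a pair in fibroblasts. Tap1 stood at 16.6, 11.8 and 12.9 FPKM in Yap siRNA cardiomyocytes, against 18.3, 18.6 and 15.9 FPKM in control cardiomyocytes, and fell with overlapping groups (−0.34 ± 0.10, adjusted p = 0.0127). Tap2 stood at 6.02, 5 and 5 FPKM in Yap siRNA cardiomyocytes, against 8.21, 7.14 and 6.15 FPKM in control cardiomyocytes, and fell without overlap (−0.36 ± 0.10, adjusted p = 0.0076; −0.23 with a pseudocount of 5). In fibroblasts Tap1 held 36.4, 32.1 and 33.7 FPKM with Yap siRNA, against 34.4, 37.8 and 36.6 FPKM with control siRNA, and was not called (−0.09 ± 0.10, adjusted p = 0.569). Tap2 rose there, to 21.1, 20.7 and 23.3 FPKM with Yap siRNA, against 17.2, 16.3 and 16.9 FPKM with control siRNA (0.35 ± 0.10, adjusted p = 0.0163). The ratio of Tap1 to Tap2 was 1.58 ± 0.141 in Yap siRNA fibroblasts and 2.16 ± 0.162 in control fibroblasts, without overlap, and 2.57 ± 0.199 and 2.47 ± 0.212 in Yap and control siRNA cardiomyocytes. The difference between cell types was called for Tap2 (−0.71 ± 0.14, adjusted p = 0.00156) and not for Tap1 (−0.26 ± 0.15, adjusted p = 0.189). Tap1 lost its cardiomyocyte call without CM_neg 2 or CM_yap 2 (adjusted p = 0.0518 and 0.0622) and in a fit of the cardiomyocyte groups alone (adjusted p = 0.0567). Tap2 lost its fibroblast call without CF_neg 2 or CF_yap 3 (adjusted p = 0.0578 and 0.0736). Erap1, the aminopeptidase that trims peptides in the endoplasmic reticulum, fell in cardiomyocytes (−0.44 ± 0.07, adjusted p = 0.000153) and was not called in fibroblasts (adjusted p = 0.461).

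Markers of other cell types moved beside these genes. Summed over 11 genes, endothelial markers reached 475, 403 and 434 FPKM in Yap siRNA cardiomyocytes, against 657, 664 and 559 FPKM in control cardiomyocytes. In fibroblasts the sum was 243, 224 and 232 FPKM with Yap siRNA, against 200.2, 194 and 176 FPKM with control siRNA. Of 10 tested endothelial markers 1 rose and 5 fell in cardiomyocytes, against 21% of all genes higher and 28.7% lower. In fibroblasts 4 rose and none fell, against 20.4% higher and 10.5% lower. Under median-of-ratios scaling 3 of the 10 fell in cardiomyocytes, where 22.6% of all genes did. Their summed level differed without overlap in the direction of the loading genes in both cell types, and of the class I sum in fibroblasts. None was at 0 in a group mean. On average 1 of the 11 lay under 0.5 FPKM in each cardiomyocyte group and 4 in each fibroblast group. Over 10 FPKM were 9 and 8 of them in Yap and control siRNA cardiomyocytes, but only 1 in each fibroblast group. The fibroblast sum is therefore mainly the level of 1 gene and does not describe the markers as a set. Their part in these results was not tested.

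Psmb8, Psmb9 and Psmb10 encode the catalytic subunits that replace Psmb5, Psmb6 and Psmb7 in the immunoproteasome, and none of them was called in fibroblasts with all groups in the fit. Psmb8 stood at 40.5, 37.1 and 28.2 FPKM in Yap siRNA cardiomyocytes, against 47.7, 43.1 and 40.3 FPKM in control cardiomyocytes, with a call (−0.31 ± 0.10, adjusted p = 0.0195) although the groups overlapped. Its fibroblast levels were 88, 92.1 and 90.9 FPKM with Yap siRNA, against 83.1, 81.1 and 88.2 FPKM with control siRNA (adjusted p = 0.494). The Psmb8 call was lost with median-of-ratios factors (adjusted p = 0.0781), in a fit of the cardiomyocyte groups alone (adjusted p = 0.0764), without CM_neg 1 (adjusted p = 0.0882) and without CM_yap 3 (−0.17, adjusted p = 0.0881), its lowest library. Psmb9 held 25.9, 19.4 and 16.8 FPKM in Yap siRNA cardiomyocytes, against 25, 26.3 and 21.1 FPKM in control cardiomyocytes (adjusted p = 0.131), and 53.4, 56.5 and 52.7 FPKM in Yap siRNA fibroblasts, against 44.6, 48.8 and 50.3 FPKM in control fibroblasts (adjusted p = 0.29). The cardiomyocyte value of Psmb9 was called without CM_yap 1 (−0.39, adjusted p = 0.00395), and its fibroblast value in a fit of the fibroblast groups alone (adjusted p = 0.0393). Psmb10 held 30.4, 28.4 and 25.9 FPKM in Yap siRNA cardiomyocytes, against 31.6, 33 and 30.2 FPKM in control cardiomyocytes (adjusted p = 0.0935), and 53.9, 59.4 and 52.4 FPKM in Yap siRNA fibroblasts, against 47.2, 52.5 and 51.6 FPKM in control fibroblasts (adjusted p = 0.214).

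The FPKM ratios of all 3 inducible subunits to the subunits they replace were higher with Yap siRNA in fibroblasts, without overlap though narrowly for Psmb8. No inducible subunit was called there, and Psmb7 fell (−0.25 ± 0.07, adjusted p = 0.0124), while Psmb5 and Psmb6 were not called (−0.06 and −0.04). The FPKM ratio of Psmb9 to Psmb6 was 0.179 ± 0.0397 in Yap siRNA cardiomyocytes and 0.252 ± 0.0268 in control cardiomyocytes, and 0.73 ± 0.0237 and 0.627 ± 0.00768 in Yap and control siRNA fibroblasts, and the cardiomyocyte groups did not overlap either. The ratio of Psmb10 to Psmb7 was 0.113 ± 0.00608 and 0.12 ± 0.00922 in Yap and control siRNA cardiomyocytes, with overlap, and 0.315 ± 0.00817 and 0.242 ± 0.016 in Yap and control siRNA fibroblasts. The ratio of Psmb8 to Psmb5 was 0.379 ± 0.1 and 0.333 ± 0.019 in Yap and control siRNA cardiomyocytes and 0.862 ± 0.0588 and 0.769 ± 0.0224 in the corresponding fibroblasts. Psmb5 itself fell in cardiomyocytes (−0.47 ± 0.08, adjusted p = 0.000213), and Psmb6 rose (0.27 ± 0.07, adjusted p = 0.00738), so these ratios also carry changes of their denominators. Of 17 constitutive proteasome and activator genes 3 rose (17.6%, against 21% of all genes) and 6 fell (35.3%, against 28.7%) in cardiomyocytes. In fibroblasts 2 rose (11.8%, against 20.4%) and 2 fell (11.8%, against 10.5%). Under median-of-ratios scaling 5 rose (29.4%, against 26.2%) and 3 fell (17.6%, against 22.6%) in cardiomyocytes. In fibroblasts 2 then rose (11.8%, against 17.1%) and 4 fell (23.5%, against 13.8%).

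**Figure D3:**
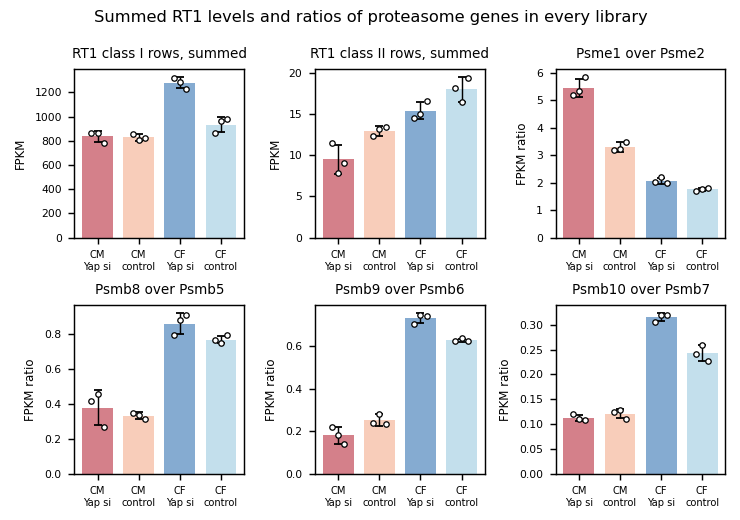
Summed FPKM of the 38 RT1 class I rows and the 9 RT1 class II rows, and FPKM ratios of proteasome genes, in every library. Open points are the 3 libraries of a group, bars their mean and whiskers the SD; the class I sum is higher with Yap siRNA in fibroblasts and overlaps its control in cardiomyocytes, and the ratio of Psme1 to Psme2 is higher with Yap siRNA in both cell types.

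The activator subunit Psme1 was the 1 proteasome member that rose, and it did so in cardiomyocytes. Psme1 and Psme2 encode the alpha and beta chains of the PA28 ring that opens the proteasome. Psme1 stood at 682, 672 and 594 FPKM in Yap siRNA cardiomyocytes, against 389.9, 366 and 405 FPKM in control cardiomyocytes (0.74 ± 0.08, adjusted p = 2e-06), with no overlap. Fibroblasts held 283, 297 and 269 FPKM with Yap siRNA, against 235, 236 and 271 FPKM with control siRNA, with overlap and no call (0.20 ± 0.08, adjusted p = 0.0639). That fibroblast value passed after quantile normalization (adjusted p = 0.0219), in a fit of the fibroblast groups alone (adjusted p = 0.0452), without CM_yap 3 (adjusted p = 0.0419) and without CF_neg 3 (adjusted p = 0.0243). The difference was 0.55 ± 0.11 (adjusted p = 0.00136). Psme2 was called in neither cell type (adjusted p = 0.883 and adjusted p = 0.781), and the ratio of Psme1 to Psme2 was 5.45 ± 0.334 in Yap siRNA cardiomyocytes and 3.29 ± 0.177 in control cardiomyocytes. In fibroblasts that ratio was 2.07 ± 0.112 with Yap siRNA and 1.76 ± 0.0434 with control siRNA, and neither pair overlapped.

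Class II genes were low throughout. Summed over the 9 RT1 class II rows, the level was 11.4, 7.88 and 9.1 FPKM in Yap siRNA cardiomyocytes, against 12.3, 13.1 and 13.4 FPKM in control cardiomyocytes. The fibroblast sums were 14.6, 15 and 16.6 FPKM with Yap siRNA, against 18.1, 16.4 and 19.3 FPKM with control siRNA. The cardiomyocyte groups did not overlap and the fibroblast groups did. RT1-DMa and RT1-DMb, which encode the editor that exchanges class II peptides, made up most of these sums, and 6 of the 9 rows lay under the filter. RT1-DMb fell in fibroblasts, to 3.96, 4.26 and 4.94 FPKM with Yap siRNA, against 6.96, 6 and 8.01 FPKM with control siRNA (−0.56 ± 0.12, adjusted p = 0.00199), the 1 member called lower there. With a pseudocount of 5 the value was −0.35, still called. Its cardiomyocyte levels were 4.43, 4.17 and 3.52 FPKM with Yap siRNA, against 4.11, 4.72 and 4.1 FPKM with control siRNA, and overlapped. RT1-DMa was called lower in cardiomyocytes (−0.49 ± 0.18, adjusted p = 0.0319), but without CM_yap 2 the value was −0.19 (adjusted p = 0.102), and the call was also lost under both scalings (adjusted p = 0.0568 and 0.0632) and when CM_neg 1, CM_neg 2 or CM_neg 3 was left out (adjusted p = 0.0543, 0.0632 and 0.0847). Ciita, the switch of class II genes, stood at 0.02, 0 and 0.11 FPKM in Yap siRNA cardiomyocytes, against 0.06, 0.15 and 0.04 FPKM in control cardiomyocytes. Its fibroblast levels were 0.04, 0 and 0.06 FPKM with Yap siRNA, against 0.02, 0 and 0 FPKM with control siRNA, and it lay under the filter and was not tested. Rfxap and Rfxank, subunits of the RFX complex, rose in cardiomyocytes (0.38 and 0.25), and Rfx5, the third subunit, rose in fibroblasts (0.39). Rfx5 was also called higher in cardiomyocytes under median-of-ratios scaling and quantile normalization (0.25 and 0.26, adjusted p = 0.0215 and 0.0177). In the main fit the difference between cell types was called for none of the 3 (adjusted p = 0.291, 0.114 and 0.174 for Rfxap, Rfxank and Rfx5). It was called positive in 1 of them under median-of-ratios scaling and in 2 after quantile normalization. The cardiomyocyte call of Rfxank ended without CM_neg 1, CM_neg 2, CM_yap 1 or CM_yap 2 (adjusted p = 0.0558, 0.0913, 0.06 and 0.0604).

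The invariant chain gene Cd74, whose product guards the class II groove, rose in cardiomyocytes apart from the class II rows. It stood at 6.31, 7.54 and 6.82 FPKM in Yap siRNA cardiomyocytes, against 3, 3.93 and 2.36 FPKM in control cardiomyocytes (0.96 ± 0.15, adjusted p = 0.000117), with no overlap. Fibroblasts held 0.08, 0.34 and 0.26 FPKM with Yap siRNA, against 0.17, 0.5 and 0.17 FPKM with control siRNA. The difference was 1.02 ± 0.22 (adjusted p = 0.00235) and missed the threshold with a pseudocount of 0.1 (adjusted p = 0.0552). With a pseudocount of 5 the cardiomyocyte change was 0.56 and the difference 0.57, both called. Leukocyte markers, which include antigen presenting cells' genes, summed over 15 genes to 344, 291 and 247 FPKM in Yap siRNA cardiomyocytes, against 272, 325 and 255 FPKM in control cardiomyocytes. Their fibroblast sums were 448, 472 and 405 FPKM with Yap siRNA, against 425, 400.2 and 438 FPKM with control siRNA. Of 13 tested markers 2 rose (15.4%, against 21% of all genes) and 5 fell (38.5%, against 28.7%) in cardiomyocytes. In fibroblasts 1 rose (7.69%, against 20.4% of all genes), none under either scaling. The T cell marker Cd3e was at 0 FPKM in 11 of 12 libraries, and the pan-leukocyte marker Ptprc held 3.65, 2.89 and 2.69 FPKM in Yap siRNA cardiomyocytes, against 3.68, 4.67 and 3.41 FPKM in control cardiomyocytes. Cd3e and Ptprc do not stand for the list, whose tested markers changed by −0.72 to 0.55 in cardiomyocytes. The part of these cells in the Cd74 result was not tested. Ctss, the protease that degrades the invariant chain, and Ifi30, a lysosomal thiol reductase, were called in neither cell type.

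Cd1d1, whose product presents lipids to natural killer T cells, rose in both cell types. It stood at 17.3, 15.8 and 17 FPKM in Yap siRNA cardiomyocytes, against 10.9, 10.1 and 9.61 FPKM in control cardiomyocytes (0.66 ± 0.08, adjusted p = 1.02e-05). The fibroblast libraries held 10.9, 9.77 and 9.97 FPKM with Yap siRNA, against 6.84, 7.3 and 7.02 FPKM with control siRNA (0.48 ± 0.08, adjusted p = 0.000395). Neither pair overlapped and the difference was not called (0.18 ± 0.11, adjusted p = 0.221), though it passed under median-of-ratios scaling (0.31, adjusted p = 0.0402) and quantile normalization (0.37, adjusted p = 0.0152).

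Without Yap siRNA, the cell types themselves differed in these genes. Under control siRNA, cardiomyocytes against fibroblasts, 26 members were lower (48.1%) and 8 higher (14.8%), where 68.4% of all tested genes were called, 26.4% lower and 42% higher. Under median-of-ratios scaling 29 were lower and 3 higher, with 33.1% of all genes lower and 33.9% higher, and under quantile normalization 33 and 3, with 37.2% and 30.7%. The median over the members was −0.27, against 0.125 over all genes, which the scalings moved to 0.004 and −0.06 with the members at −0.393 and −0.427. Among the members called lower were peptide supply genes. Tap2 reached 42.6% of the fibroblast level (−1.13 ± 0.10), Tap1 48.6%, Psmb9 50.4% (−0.96 ± 0.12), Psmb8 52% (−0.93 ± 0.10) and Erap1 51.4% (−0.93 ± 0.07). The heavy chain row RT1-N1 reached 49.5% (−0.92 ± 0.15). B2m reached 63.2% (−0.66 ± 0.09), a value of −0.26 after quantile normalization. Tapbp was not called (0.06 ± 0.09, adjusted p = 0.529). Psme1 (0.65 ± 0.08), Cd74 (1.67 ± 0.15) and Cd1d1 (0.47 ± 0.08) were higher in cardiomyocytes. After quantile normalization Psme1 was 0.41 and Cd1d1 0.24, and Cd74 was 3.15 with a pseudocount of 0.1 and 0.61 with a pseudocount of 5, all still called. The remaining 5 higher calls, RT1-T24-2, RT1-T24-3, RT1-T24-4, Rfxap and Rfxank, ended under both scalings. This comparison uses the control libraries of the siRNA comparisons, so its values and theirs are not independent.

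Genes of the interferon pathway also rose in fibroblasts. Of 17 tested receptor, JAK, STAT, IRF and SOCS genes 13 rose and none fell in fibroblasts, where 20.4% of all genes were higher, with a median of 0.42, against 0.065 over all genes. In cardiomyocytes 3 rose and 6 fell, where 21% of all genes were higher and 28.7% lower, with a median of −0.10. The difference was called in 11, all negative (64.7%, against 23.7% of all genes negative). Under either scaling 11 rose in fibroblasts, where 17.1% and 14.2% of all genes were higher. The difference was then negative in 9 and 10 (52.9% and 58.8%, against 15.4% and 15.2% of all genes). Jak2, a kinase of the interferon gamma receptor, stood at 65.3, 56.9 and 63.1 FPKM in Yap siRNA fibroblasts, against 30.1, 31.7 and 31.6 FPKM in control fibroblasts (0.96 ± 0.08, adjusted p = 7.13e-07). Ifnar1, a chain of the type I interferon receptor, stood at 36.7, 33.5 and 36.3 FPKM in Yap siRNA fibroblasts, against 22.3, 21.6 and 23 FPKM in control fibroblasts (0.65 ± 0.07, adjusted p = 6.81e-06). Neither was called in cardiomyocytes. Irf7, an interferon-induced factor, moved both ways. It held 249, 235 and 223 FPKM in Yap siRNA cardiomyocytes, against 330.1, 321 and 310 FPKM in control cardiomyocytes (−0.44 ± 0.06, adjusted p = 2.74e-05), and 504, 489 and 496 FPKM in Yap siRNA fibroblasts, against 337, 363 and 358 FPKM in control fibroblasts (0.49 ± 0.06, adjusted p = 2.14e-05). The receptor chain Ifngr1 did the same (−0.49 ± 0.07 in cardiomyocytes, 0.45 ± 0.07 in fibroblasts, difference −0.95 ± 0.10, adjusted p = 4.42e-06).

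**Figure D4:**
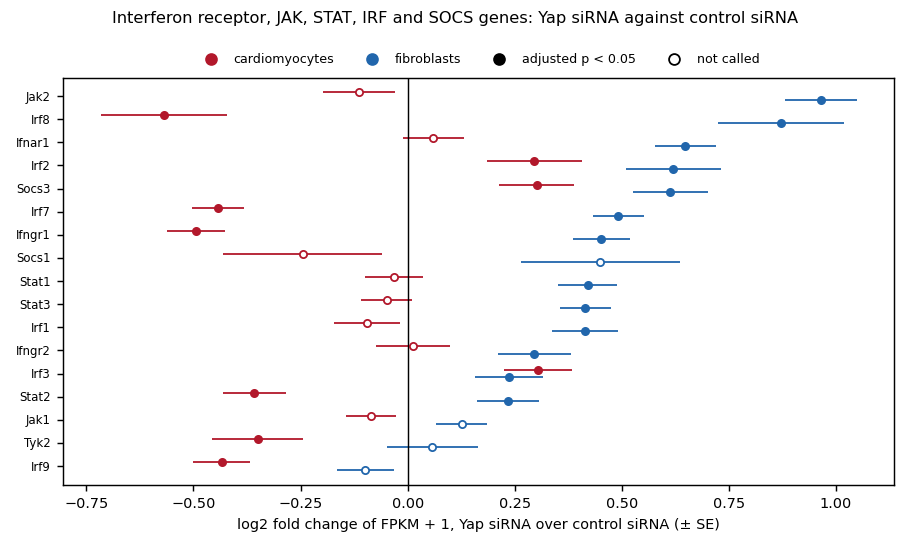
Log2 fold changes of FPKM + 1, Yap siRNA over control siRNA, on the horizontal axis for 17 interferon pathway genes, ordered by the fibroblast value. Red points are cardiomyocytes and blue points fibroblasts (3 libraries a group), bars are limma's SE and filled points passed an adjusted p of 0.05; 13 blue points are filled on the right of 0, while 3 red points are filled on the right and 6 on the left.

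Other partners of the 2 routes were mixed, and their counts stand beside 21% of all genes higher and 28.7% lower in cardiomyocytes and 20.4% and 10.5% in fibroblasts. Of 9 tested endolysosomal genes 6 rose and none fell in cardiomyocytes, and 7 rose and 1 fell in fibroblasts. Lgmn, a protease that processes class II antigens, rose in both (0.59 ± 0.07, adjusted p = 3.64e-06, and 0.49 ± 0.07, adjusted p = 4.59e-05). Of 6 chaperones of the endoplasmic reticulum 2 rose and 3 fell in cardiomyocytes, and none rose and 4 fell in fibroblasts. Calr, the calreticulin that assists class I loading, stood at 1450.5, 1538 and 1341 FPKM in Yap siRNA cardiomyocytes, against 935, 932 and 997 FPKM in control cardiomyocytes (0.59 ± 0.07, adjusted p = 8.84e-06), a rise in the cell type where tapasin fell. In fibroblasts Calr was not called (−0.18 ± 0.07, adjusted p = 0.0639). Of 6 tested costimulatory and checkpoint genes none rose and 3 fell in cardiomyocytes, and 3 rose and none fell in fibroblasts. Cd274, which encodes the checkpoint ligand PD-L1, moved both ways (−0.35 ± 0.13, adjusted p = 0.0363 in cardiomyocytes, and 0.63 ± 0.13, adjusted p = 0.00174 in fibroblasts), as did the adhesion gene Icam1 (−0.74 ± 0.08, adjusted p = 5.82e-06, and 0.25 ± 0.08, adjusted p = 0.0352). Of 5 NF-Y and CREB genes 1 rose in cardiomyocytes, 2 under either scaling, and none was called in fibroblasts, where 1 fell after quantile normalization.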

How the data were processed

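RNA of 12 libraries, 3 in each of 4 groups, was sequenced from a low-input poly-A library on the BGISEQ-500, per the labels' protocols. The authors deposited 1 FPKM table of all genes, and HISAT, Bowtie2 and build rn6 are named in the submitters' processing notes. The quantifier, its settings and the annotation were not given in the sources used here. Values of low genes were not whole multiples of a common step, so read depth is unknown and no counting intervals are given. Of 31 symbols that were blank or turned into dates, 29 were restored by gene ID.

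Fits were made with limma 3.58.1 in R 4.3.3 on log2(FPKM + 1), over all 4 groups with a variance trend, for genes that averaged 0.5 FPKM or more. P-values were adjusted over all tested genes by the Benjamini-Hochberg method, with a threshold of 0.05. Tables and figures used Python 3.11.15, pandas 2.3.3 and matplotlib 3.10.9, and the fit was tested on simulated data. Alternatives were pseudocounts of 0.1 and 5, no filter and 5 FPKM, 2 scalings, no variance trend, a replicate block, only the groups compared, and each library left out.

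Values in every library are given for members called in either siRNA comparison that reached 5 FPKM in the higher group and a log2 change of at least 0.5, and always for B2m, Tap1, Tap2, Tapbp, Psmb8, Psmb9, Psmb10, Ciita and Cd74. Of other gene lists, up to 4 genes of smallest p may be named. The members, lists and rules were chosen with earlier results of these data known. Sequences were matched by gene ID or symbol to RefSeq on GRCr8, and 62 of 66 members matched.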

Additional observations from a re-analysis of the deposited data

Results flagged for a closer look

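In 15 of the members described by library, the Yap siRNA effect differed between cell types by the test of the difference itself (cardiomyocytes minus fibroblasts, limma, adjusted over all genes). Over all tested genes 35.3% had a called difference. Many of these members were chosen for a called change in a siRNA comparison that enters the difference. A high count is therefore partly built in by that choice. The difference was negative in the heavy chain rows RT1-A1 (−0.79 ± 0.14), RT1-EC2 (−1.15 ± 0.14), RT1-M3-1 (−0.85 ± 0.13), RT1-T24-2 (−0.81 ± 0.15), RT1-T24-4 (−0.66 ± 0.12), RT1-N3 (−0.50 ± 0.13) and RT1-S3 (−0.47 ± 0.09). It was also negative in the loading genes Tapbp (−1.01 ± 0.12), Tap2 (−0.71 ± 0.14) and Tapbpl (−0.60 ± 0.10) and in the proteasome genes Psmb8 (−0.42 ± 0.14) and Psmb10 (−0.29 ± 0.11). It was positive in Cd74 (1.02 ± 0.22), Psme1 (0.55 ± 0.11) and RT1-DMb (0.49 ± 0.17). Psmb8 and Psmb10 were not called in fibroblasts, and the difference of Psmb8 ended under both scalings (adjusted p = 0.156 and 0.0672) and without CM_neg 1 (adjusted p = 0.093), among others. That of Psmb10 ended under both scalings too (adjusted p = 0.294 and 0.239) and without any of 9 single libraries. The difference of RT1-DMb ended without any of 8 single libraries, with adjusted p between 0.0586 and 0.0904.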

How the results depend on the processing

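Over 21 alternatives, values of the named members kept their direction and side of the threshold in 1873 comparisons, missed it in 83, newly passed it in 28 and reversed in 0. Members called lower in fibroblasts numbered 0 with a filter of 5 FPKM and 2 under quantile normalization, against 1. Positive differences between cell types numbered 1 with the 5 FPKM filter, 5 with median-of-ratios factors and 6 after quantile normalization, against 3. Members higher in cardiomyocytes than fibroblasts numbered 3 under either scaling and 5 without CF_neg 1, against 8. Members lower in cardiomyocytes numbered 7 with only the groups compared in the fit, against 11; the difference between cell types cannot be fitted from 2 groups. The promoter share was 32.1% with the shorter ISRE form in place of the core (21.4%). The cause of these shifts was not tested. Leaving out each library in turn gave 6 to 10 members higher and 8 to 15 lower in cardiomyocytes, 21 to 26 higher and 1 lower in fibroblasts, 2 to 3 positive and 18 to 24 negative differences, and 5 to 8 higher and 21 to 28 lower between cell types. All genes called ranged over 4864 to 5552, 2634 to 3891, 3356 to 4135 and 7211 to 7941 in these comparisons. With a replicate block, 9 members rose and 12 fell in cardiomyocytes, 25 rose and 1 fell in fibroblasts, 3 and 22 differences were positive and negative, and 8 and 24 members were higher and lower between cell types, with 5547, 3412, 3849 and 7665 genes called. Correlations of same-numbered libraries were 0.144, 0.037 and 0.086 in cardiomyocytes and −0.002, −0.086 and −0.123 in fibroblasts. Not every library correlated best with its own number. With 3 libraries a group these values cannot decide whether the numbers pair the libraries, and the labels do not say. Unknown read depth limits low rows, and near-identical RT1 rows limit single-row values.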
